A study of Mus musculus with 6 samples.

Results

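TGF-beta and BMP ligands signal through paired type I and type II serine/threonine kinase receptors, which phosphorylate receptor SMADs that bind SMAD4 and regulate genes in the nucleus. SMAD6 and SMAD7 are inhibitory SMADs that the pathway itself induces, and the ID proteins, encoded by classical BMP target genes, hold E proteins off DNA and so delay differentiation. In bone, TGF-beta stored in the matrix is released by resorption, and osteoclast precursors respond to it through TGFBR1 and TGFBR2, whereas ID proteins are known as brakes on RANKL-driven osteoclast formation.

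The genes described here were Tgfb1, Tgfbr1, Tgfbr2, Smad3, Smad4, Smad6, Smad7, Id1, Id2 and Id3, chosen by name, with every probe set annotated to exactly 1 of them. These came to 22 probe sets for 10 genes, of 45037 probe sets that were not controls. The cells were RAW264.7, an established line of mouse monocytes and macrophages that can turn into osteoclast-like cells when given the cytokine RANKL, so that all cultures derive from 1 tumour line. Normal medium contained sodium at 137 mmol/l (3 arrays), and low-sodium medium contained 120 mmol/l (3 arrays) with mannitol holding osmolality at 290 mOsm/l. Cells were exposed for 24 hours, and the cytokines RANKL (30 ng/ml) and M-CSF (10 ng/ml) appear in a wording that does not settle whether the normal-sodium cultures received them too. If only the low-sodium cultures did, low sodium and the cytokines cannot be told apart in any difference between the media. The labels speak of 4 biological replicates in each medium, of which 3 were analysed here.

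The arrays of replicate 3 stood apart in both media, before any gene was considered. Spiked labelling controls averaged log2 intensities of 10.04 to 10.33 in replicates 1 and 2 (4 arrays), against 8.36 on both replicate 3 arrays, and the median intensity was 66.3 to 74.2 on the former and 47.7 to 55.9 on the latter. Macrophage markers were bright on all arrays, with group means from 10.18 (Itgam) to 14.80 (Lyz2), and none of the 6 was dim, meaning that the higher of the 2 group means was below the log2 value of 5.87, the median over all probe sets. A probe set above it in 1 medium alone thus counts as not dim. All 3 T-cell markers measured were dim, as were 3 of 4 endothelial and 4 of 7 osteoblast or fibroblast markers, while B-cell markers were dim in 1 of 3 and Calcr was the 1 dim osteoclast marker of 8. The comparison asked how these cells respond to low extracellular sodium, and 2 limma fits are given for it. The first had no covariate. The second had a batch term for replicate 3 and a trended variance prior, and it was taken up in an earlier analysis with its counts in view. Replicate numbers were not taken to pair the cultures, so differences between same-numbered arrays are given below as descriptions.

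Promoter windows of 4 of these genes are shown because Tgfbr1 held the only probe sets that separated the media and because Id2, Id3 and Smad6 are textbook transcriptional targets of SMADs. Of the 10 genes, 7 had an entry in the RefSeq promoter table (GRCm38.p6), and the array files themselves name no build. Each window runs 5′ to 3′ from 250 bases before a transcription start to 10 after it. The Tgfbr1 window is chr4:47352972-47353231 (plus strand), that of Id2 chr12:25096083-25096342 (minus strand), that of Id3 chr4:136143572-136143831 (plus strand) and that of Smad6 chr9:64022050-64022309 (minus strand). Capitals mark letters that SMAD proteins are known to recognise, searched on both strands: CAGAC, the palindrome GTCTAGAC and the GC-rich GGCGCC.
Tgfbr1: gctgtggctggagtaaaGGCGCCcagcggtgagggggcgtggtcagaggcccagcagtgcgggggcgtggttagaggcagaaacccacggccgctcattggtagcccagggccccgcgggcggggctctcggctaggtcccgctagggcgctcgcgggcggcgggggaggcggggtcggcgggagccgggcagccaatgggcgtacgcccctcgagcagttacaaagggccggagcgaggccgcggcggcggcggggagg
Id2: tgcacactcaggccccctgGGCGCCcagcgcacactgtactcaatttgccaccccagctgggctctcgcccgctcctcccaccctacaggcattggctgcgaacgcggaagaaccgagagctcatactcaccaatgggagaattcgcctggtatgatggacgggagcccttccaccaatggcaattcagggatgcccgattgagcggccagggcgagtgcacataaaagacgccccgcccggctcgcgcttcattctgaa
Id3: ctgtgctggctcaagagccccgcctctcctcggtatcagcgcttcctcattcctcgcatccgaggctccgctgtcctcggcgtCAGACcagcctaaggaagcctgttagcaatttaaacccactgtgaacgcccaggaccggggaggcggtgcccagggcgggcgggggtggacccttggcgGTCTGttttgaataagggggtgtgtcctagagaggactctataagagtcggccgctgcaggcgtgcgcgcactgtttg
Smad6: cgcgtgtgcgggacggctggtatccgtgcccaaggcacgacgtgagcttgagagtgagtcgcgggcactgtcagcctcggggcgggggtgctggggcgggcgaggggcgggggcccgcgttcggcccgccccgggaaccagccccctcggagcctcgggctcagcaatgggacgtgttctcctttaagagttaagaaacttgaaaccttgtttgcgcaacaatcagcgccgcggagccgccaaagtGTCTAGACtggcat
The palindrome, which occurs in 0.177% of 32851 windows of the same length in the table, begins 4 bases before the Smad6 start. CAGAC, on either strand, occurs in 44.0% of windows and stands at 167 and 68 bases before the Id3 start. GGCGCC occurs in 9.96% and stands 233 bases before the Tgfbr1 start and 231 before that of Id2. Of the 7 genes with an entry, Tgfb1 and Smad3 have none of the 3 motifs in their windows, and Tgfbr2 has CAGAC at 1 place. The table lists 2 starts for Tgfbr1, of which the upstream one is shown, and the window of the other holds CAGAC 203 bases before its start. No searched motif overlapped another in these windows. These matches are descriptions of the sequence and not measured binding sites.

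None of the 22 probe sets passed either limma fit at an adjusted p under 0.05. The fit without a covariate called 0 of 22, beside 0.0% of all 45037 probe sets, and the batch-term fit called 0 of 22, beside 4.09% of all. At an unadjusted p under 0.05, limma without a covariate had 1 of the 22 (a Tgfbr1 probe set), beside 6.37% of all, and the batch-term fit had 3 (of Id1, Smad7 and Tgfbr1), beside 17.0% of all. The median log2 difference, low minus normal sodium, was 0.19 over the 22 and -0.02 over all probe sets. Group means were higher in low sodium for 14 of the 22, beside 47.9% of all, and 3 of the 22 were dim, beside 46.9% of all. Osteoclast markers, unlike the 22, had calls in the batch-term fit, where 5 of 8 (Ctsk, Dcstamp, Ocstamp, Mmp9 and Atp6v0d2) rose, beside 3.09% of all 18193 genes, and 0 fell. The median difference of the 8 was 1.10. Limma without a covariate called 0 of the 8, and the groups did not overlap in 1 of them (Atp6v0d2). Of the 6 macrophage markers, Adgre1 also rose, 1.95-fold (limma adjusted p = 0.00394 with the batch term, 0.734 without). Csf1r lay the other way at -0.16, with groups that did not overlap, and did not pass (limma batch-term adjusted p = 0.298). The part of either list in the values below was not tested. In bulk RNA, more cells of a type and more RNA per cell cannot be told apart.

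**Figure D1:**
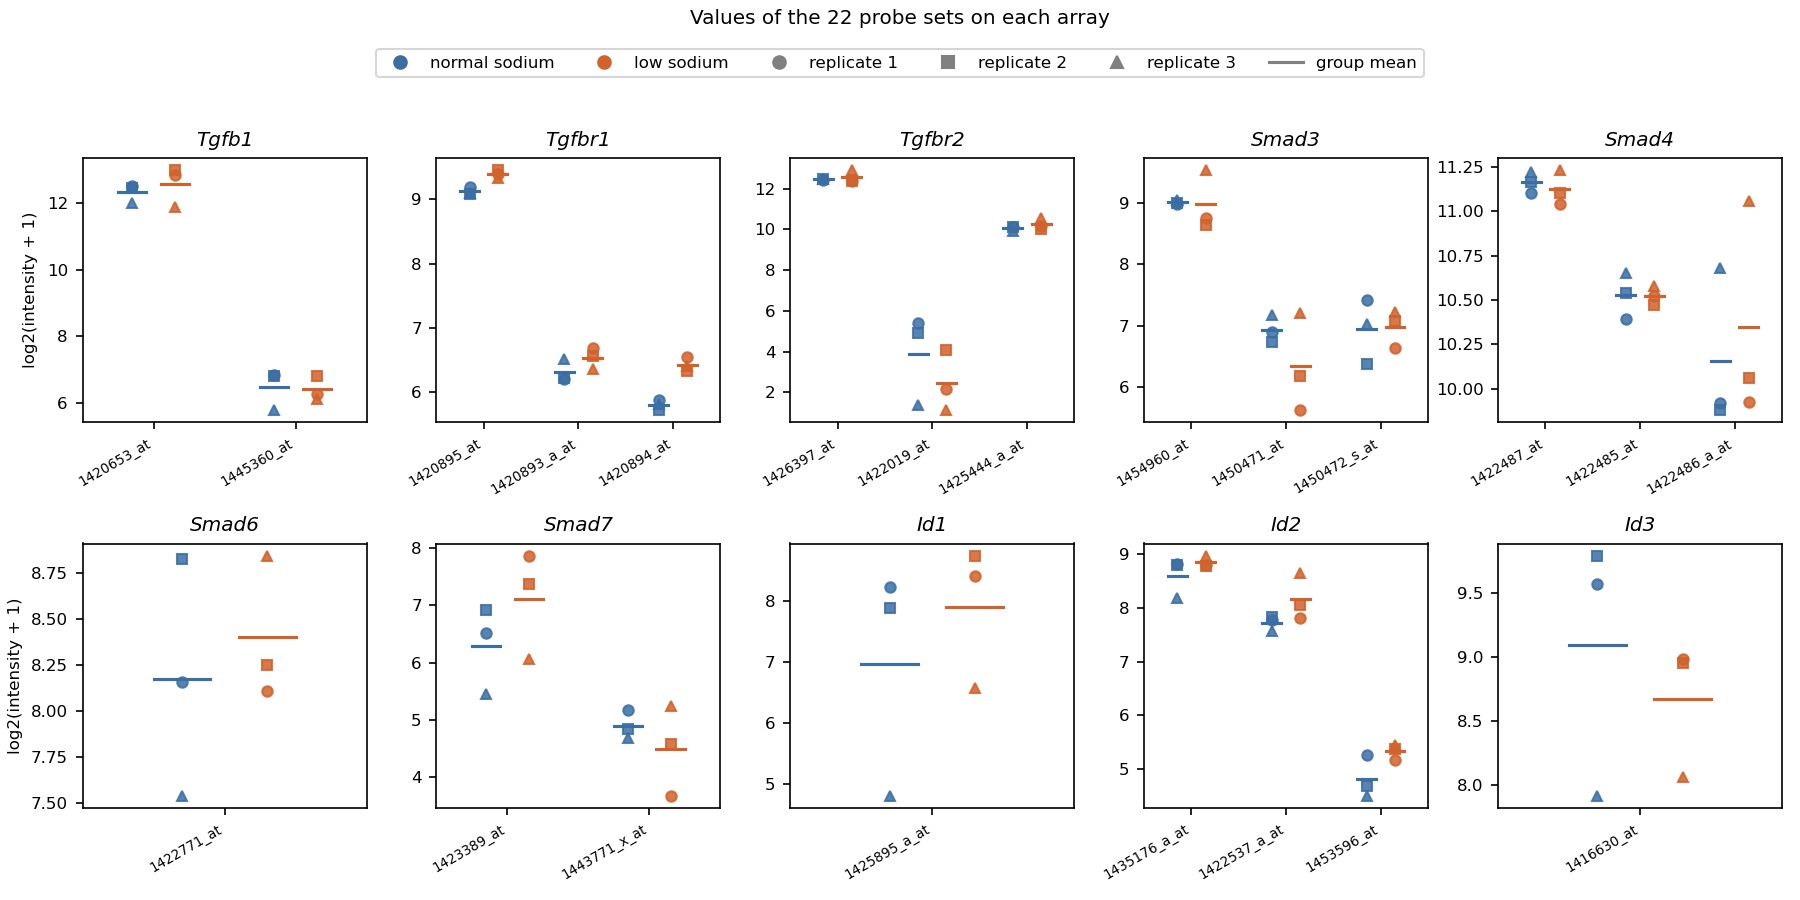
Log2(intensity + 1) of each of the 22 probe sets (horizontal axis, 1 panel per gene, each with its own vertical scale) on each array, with blue for normal and orange for low sodium, symbols for replicates 1, 2 and 3 and bars at the group means. The 2 media separate fully in the Tgfbr1 probe sets 1420895_at and 1420894_at, and the triangles of replicate 3 lie lowest in both media for Id1, Id3 and Smad7 probe set 1423389_at.

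Tgfbr1, which encodes the type I TGF-beta receptor kinase, was the 1 gene of the 10 whose groups did not overlap. Its brightest probe set (1420895_at) had log2 intensities of 9.20, 9.08 and 9.09 on the normal-sodium arrays of replicates 1, 2 and 3 and 9.39, 9.46 and 9.33 on the low-sodium arrays. Every low-sodium array was thus above every normal-sodium array, from 9.12 ± 0.06 to 9.40 ± 0.06 (SD, n = 3), a 1.21-fold difference. The log2 difference was 0.27 with a 95% interval of 0.03 to 0.51 in the batch-term fit (limma adjusted p = 0.225) and of -0.20 to 0.74 without a covariate (limma adjusted p = 0.869). Probe set 1420894_at read 5.87, 5.71 and 5.81 in normal sodium and 6.54, 6.33 and 6.40 in low sodium. Here too the groups stood apart, in each replicate number by a similar amount (0.67, 0.62 and 0.59), but the normal-sodium mean of 5.80 lay just under the median of all probe sets. Its difference of 0.63, or 0.51 with 16 added to the intensities in place of 1, did not pass (limma adjusted p = 0.725 without a covariate and 0.369 with the batch term). The third probe set (1420893_a_at) overlapped, with 6.20, 6.21 and 6.52 against 6.69, 6.55 and 6.36, so that replicates 1 and 2 were higher in low sodium and replicate 3 was lower. Over the 10 genes, 2 of 22 probe sets (9.09%) had groups that did not overlap, beside 14.9% of all probe sets.

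Tgfbr2, the type II receptor that binds the ligand first, had its brightest probe set (1426397_at) at 12.44, 12.48 and 12.46 in normal sodium and at 12.37, 12.36 and 12.92 in low sodium. The low-sodium arrays lay on both sides of the normal-sodium ones, and the difference of 0.09 had a 95% interval of -0.17 to 0.34 in the batch-term fit. Probe set 1425444_a_at showed the same layout, with differences of 0.02 and -0.07 in replicates 1 and 2 and 0.63 in replicate 3. The remaining probe set (1422019_at) was dim, with values from 1.11 to 5.38, and its difference of -1.44 shrank to -0.69 with 16 added, so it gives no usable level.

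Tgfb1, the gene of the ligand itself, read 12.51, 12.46 and 12.01 in normal sodium and 12.83, 12.99 and 11.88 in low sodium by its bright probe set (1420653_at). In replicates 1 and 2 both low-sodium arrays were above both normal-sodium arrays, by 0.43 on average, whereas the difference in replicate 3 was -0.12. With replicates 1 and 2 alone and a trended prior, limma called this probe set (adjusted p = 0.00714), 1 of 2 calls among the 22, beside 8.25% of all probe sets. With a constant prior the same 4 arrays gave 0 calls among the 22, and limma an adjusted p of 0.363 for Tgfb1. Over all 6 arrays its difference was 0.24, with a 95% interval of -0.02 to 0.51 in the batch-term fit (limma adjusted p = 0.347). Without a covariate it ran from 0.034 to 0.59 as 1 array at a time was left out, and the lower replicate 3 arrays enter those values unbalanced. Probe set 1445360_at of the same gene, at 5.78 to 6.85, differed by -0.07 and did not follow it.

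Smad3, the receptor SMAD of the TGF-beta branch, had steady normal-sodium values of 8.98, 9.00 and 9.06 in its brightest probe set (1454960_at), against 8.75, 8.64 and 9.54 in low sodium. Replicates 1 and 2 were thus below and replicate 3 above every normal-sodium array, and the mean difference was -0.03 (95% interval -0.43 to 0.36 with the batch term). Probe set 1450471_at read 6.89, 6.73 and 7.18 against 5.61, 6.18 and 7.21, again lower in low sodium in replicates 1 and 2, and differed by -0.60 without passing (limma adjusted p = 0.406 with the batch term). Leaving out 1 array at a time without a covariate gave -1.04 to -0.24, and the higher replicate 3 arrays enter those values unbalanced. Probe set 1450472_s_at had no common direction, with differences of -0.78, 0.70 and 0.19 in replicates 1, 2 and 3.

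Smad4, the common partner of all receptor SMADs, gave the 3 narrowest batch-term intervals of the 22 probe sets. Its brightest probe set (1422487_at) read 11.10, 11.16 and 11.22 in normal and 11.04, 11.10 and 11.23 in low sodium. The difference was -0.04 with a 95% interval of -0.20 to 0.13 in the batch-term fit. Probe set 1422485_at gave -0.01, with an interval of -0.20 to 0.19. By contrast, 1422486_a_at separated the replicates rather than the media, at 9.92 and 9.88 in replicates 1 and 2 and 10.68 in replicate 3 of normal sodium, and at 9.93, 10.06 and 11.06 in low sodium.

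The inhibitory SMAD genes gave wider intervals. For Smad7, whose product blocks the type I receptor, probe set 1423389_at read 6.51, 6.92 and 5.45 in normal sodium and 7.87, 7.38 and 6.07 in low sodium. Low sodium was higher in each replicate number, by 1.35, 0.45 and 0.62, but the groups overlapped because both replicate 3 arrays were the dimmest of their medium. The difference of 0.81, a ratio of 1.75, had a 95% interval of 0.17 to 1.45 with the batch term (limma adjusted p = 0.181) and of -0.69 to 2.31 without it (limma adjusted p = 0.877). With 1 array left out and no covariate it ran from 0.39 to 1.33, and the shift of replicate 3 enters those values. A second Smad7 probe set (1443771_x_at) was dim, at 3.68 to 5.24, and differed by -0.41. Smad6, which acts mainly on BMP signalling, read 8.15, 8.83 and 7.54 in normal and 8.11, 8.25 and 8.84 in low sodium. Its direction depended on the replicate, with differences of -0.05, -0.58 and 1.30, and the mean of 0.23 did not exceed its SE of 0.33 (batch-term fit).

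Among the ID genes, Id1 had the largest difference of the 22 in the upward direction. Its 1 probe set read 8.23, 7.90 and 4.81 in normal sodium and 8.42, 8.76 and 6.57 in low sodium. Each low-sodium array was above the normal-sodium array of the same number, by 0.18, 0.86 and 1.76, while the spread between replicates within a medium was larger than the difference between the media. The means were 6.98 ± 1.89 and 7.91 ± 1.18 (SD, n = 3), 1.91-fold apart. The log2 difference of 0.94 had an SE of 1.09 without a covariate (limma adjusted p = 0.924) and of 0.29 with the batch term (limma adjusted p = 0.140). Without normal-sodium replicate 3 the fit with no covariate gave -0.15. That fit keeps the low-sodium array of replicate 3, at 6.57, with no counterpart, so the shift of replicate 3 enters the value. Replicates 1 and 2 alone gave 0.52.

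Id3 lay the other way in replicates 1 and 2. Its values were 9.57, 9.79 and 7.92 in normal sodium and 8.99, 8.95 and 8.07 in low sodium. Both low-sodium arrays of replicates 1 and 2 were below both normal-sodium ones, with differences of -0.58 and -0.84, and replicate 3 was higher in low sodium by 0.15. Limma on replicates 1 and 2 alone with a trended prior called Id3 lower (adjusted p = 0.00742), but with a constant prior did not (adjusted p = 0.293). Over 6 arrays the difference was -0.42 with an interval of -0.86 to 0.01 in the batch-term fit (limma adjusted p = 0.306). Without a covariate it was -1.01 when normal-sodium replicate 3 was left out and -0.075 when normal-sodium replicate 2 was. Both replicate 3 arrays were the lowest of their medium, and leaving out 1 array unbalances them, so their shift enters both values. Replicates 1 and 2 alone gave -0.71. Id3 and Tgfb1 were the 2 calls of the trended analysis of replicates 1 and 2, and in both the replicate 3 arrays went the opposite way. Whether the response itself differed there was not tested, as replicate 3 holds 1 array of each medium.

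Id2, which is also induced by signals other than BMP, read 8.82, 8.80 and 8.18 in normal sodium and 8.80, 8.78 and 8.98 in low sodium by its brightest probe set (1435176_a_at). Replicates 1 and 2 were level between the media, at -0.01 and -0.02, and replicate 3 was higher in low sodium by 0.80. Probe set 1422537_a_at had the same layout, at 0.03, 0.23 and 1.08, and the dim probe set 1453596_at gave -0.09, 0.70 and 0.95. The 3 probe sets thus shared their largest difference in replicate 3, and none passed (limma adjusted p from 0.376 to 0.663 with the batch term).

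**Figure D2:**
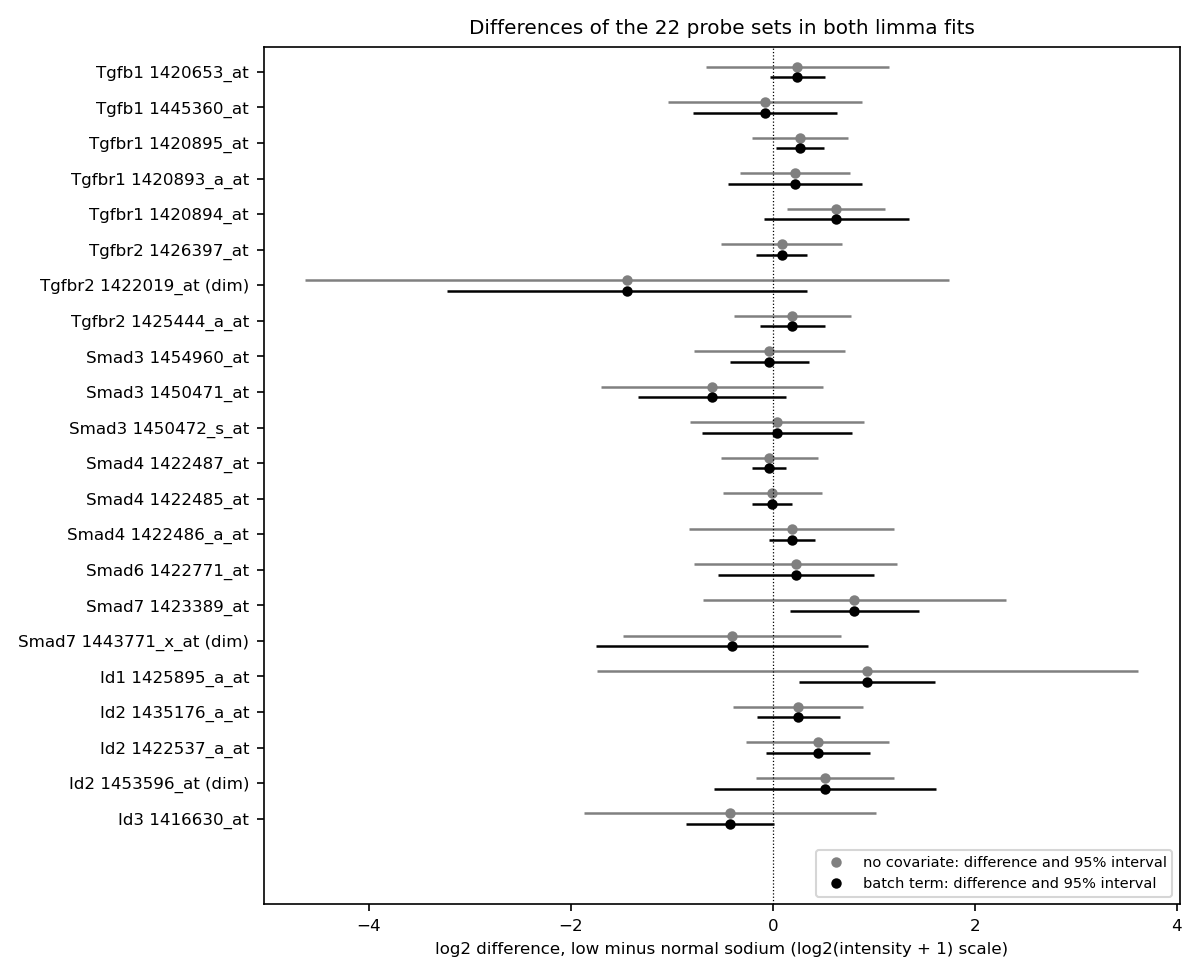
Log2 difference (horizontal axis, low minus normal sodium) of each probe set (vertical axis) with its 95% interval, in grey from the fit without a covariate and in black from the batch-term fit. The black intervals of Id1 (0.26 to 1.61), Smad7 1423389_at (0.17 to 1.45) and Tgfbr1 1420895_at (0.03 to 0.51) lie above 0 before adjustment over all probe sets, and none of these passed after it.

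The replicate numbers differed in direction across the genes. Low sodium was higher for 10 of 22 probe sets in replicate 1 and 11 in replicate 2, beside 51.3% and 53.3% of all. In replicate 3 it was higher for 18, beside 43.9% of all probe sets there. The median difference over the 22 was -0.02 in replicates 1 and 2 and 0.41 in replicate 3, against 0.03 and -0.11 over all probe sets. These are 1 array against 1 in replicate 3, and several probe sets share a gene, so the count is a description. Differences were positive in all 3 replicate numbers for 6 of the 22, beside 17.4% of all, namely 2 probe sets of Tgfbr1 and 1 each of Id1, Id2, Smad4 and Smad7. The 1 probe set negative in all 3, beside 18.7% of all, was the dim one of Tgfbr2.

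**Figure D3:**
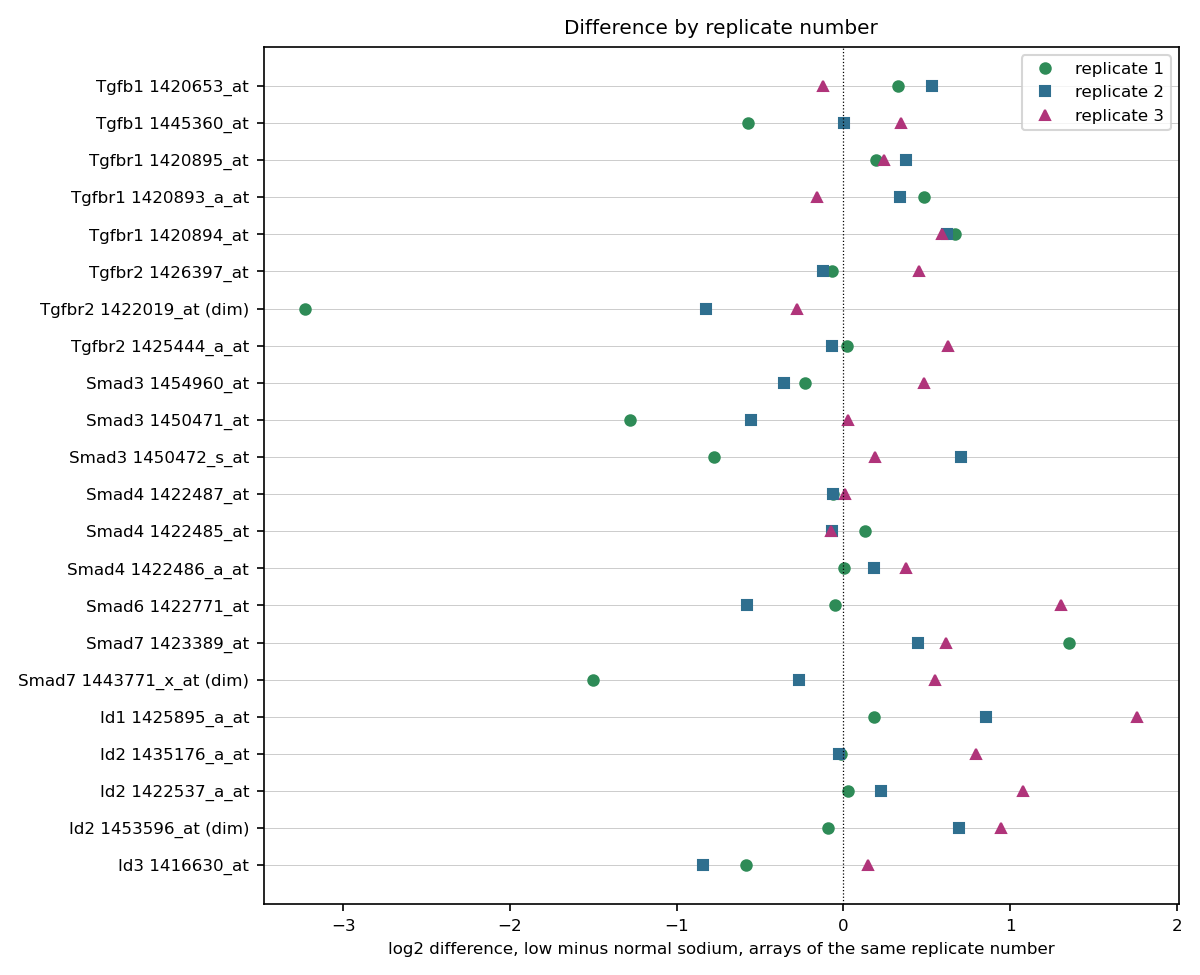
Log2 difference, low minus normal sodium, between the 2 arrays of the same replicate number (horizontal axis) for each probe set (vertical axis), with circles, squares and triangles for replicates 1, 2 and 3. The triangles lie right of 0 for 18 of 22 probe sets, and the 3 symbols nearly coincide at 0.59 to 0.67 for Tgfbr1 1420894_at.

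Several of these genes differed more between replicate 3 and the other arrays than between the media. Id1 was lower on both replicate 3 arrays than on all 4 others, with a mean log2 difference of -2.64. That of Smad7 (1423389_at) was -1.41, that of Id3 -1.33 and that of Tgfb1 (1420653_at) -0.75. In all, 6 of 22 probe sets had both replicate 3 arrays below the other 4, beside 22.4% of all probe sets, and 5 had both above, beside 10.6%. The 5 were all 3 of Smad4 and 2 of Smad3, led by Smad4 1422486_a_at at 0.92 and Smad3 1450471_at at 0.84. Labelling controls moved with the same split, and their part in these shifts was not tested.

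**Figure D4:**
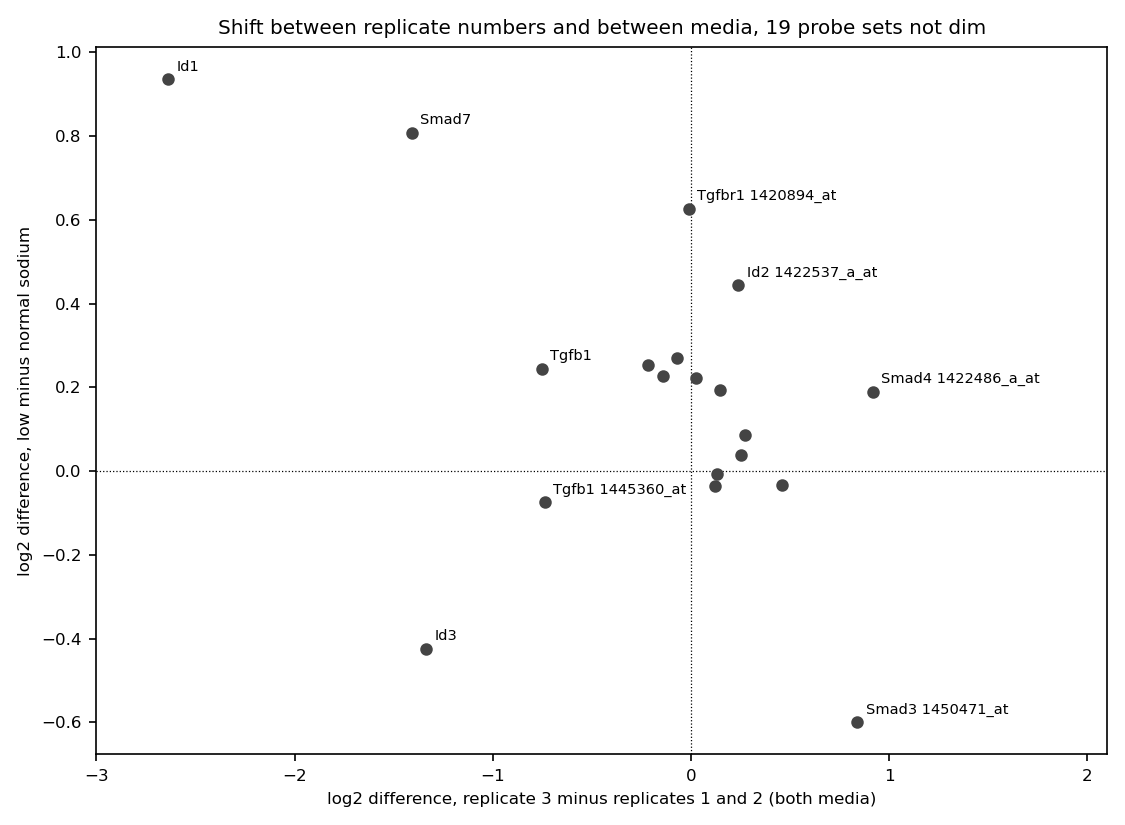
Log2 difference between the replicate 3 arrays and those of replicates 1 and 2 (horizontal axis, both media together) against the log2 difference between low and normal sodium (vertical axis), 1 point for each of the 19 probe sets that were not dim. Id1, Smad7 and Id3 lie far left, between -2.64 and -1.33, while the Tgfbr1 point at 0.63 sits at -0.01 on the horizontal axis.

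Other genes of the pathway were taken from 8 lists, with 1 probe set per gene, the one of highest mean. Of 81 genes measured, 5 rose, beside 3.09% of all 18193 genes, and 1 fell, beside 2.92%, in the batch-term fit. That is 7.41% called, beside 6.01% of all, and 32 of the 81 were dim. Limma without a covariate called 0 of them, beside 0.0% of all genes. The count of 6 varied with the arrays used. It was 2, 0 and 14 when replicates 1, 2 and 3 of normal sodium were left out in turn. With those of low sodium left out it was 1, 0 and 14, and it was 0 with a constant prior. Calls over all probe sets moved the same way, from 1840 to between 380 and 541 without 1 array of replicates 1 or 2. The differences of the 6 genes kept their sign in every setting of the batch-term fit. Under 15 other settings of this fit, the call of Acvrl1 was lost in 4, that of Tgif1 in 7, those of Cdkn1a and Junb in 8 each, and those of Nrros and Tcf3 in 9 each. Foxh1, Inha, Hes1 and Chrd, named below, were above the median of all probe sets in only 1 medium. Groups did not overlap in 16 of the 81 genes, beside 17.5% of all genes. No list was tested as a whole, and the median difference over the 81 genes was 0.00.

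Receptors and co-receptors had 1 of 11 genes called, beside 6.01% of all genes. Groups did not overlap in 3 of the 11, beside 17.5% of all genes. Acvrl1, the type I receptor ALK1 that feeds SMAD1 and SMAD5, read 8.44, 8.11 and 8.31 in normal and 9.10, 9.50 and 9.82 in low sodium, with no overlap. It rose 2.28-fold, with a log2 difference of 1.19 ± 0.17 (SE, 3 arrays per group, limma batch-term fit, adjusted p = 0.0106), and limma without a covariate did not call it (adjusted p = 0.566). Its call was lost without normal-sodium or low-sodium replicate 2 (adjusted p = 0.0743 and 0.0779). The other bright Acvrl1 probe set (1435825_at) did not share the rise, at -0.09. Bmpr2 at 0.34 and Bmpr1a at -0.39, the type II and a type I BMP receptor, had groups that did not overlap and did not pass (batch-term adjusted p = 0.0950 and 0.107). Acvr1 differed by 0.31, and 1 of its 2 other bright probe sets had the opposite sign.

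Genes that hold TGF-beta latent or activate it had 1 of 10 called, beside 6.01% of all genes. Nrros, which anchors latent TGF-beta 1 on macrophages and microglia, rose by 0.35 ± 0.07 (SE, limma adjusted p = 0.0408 with the batch term, 0.829 without), from 12.31, 12.22 and 12.38 to 12.69, 12.67 and 12.59. All 3 low-sodium arrays exceeded all 3 normal-sodium ones. The integrin gene Itgav, whose product helps to free TGF-beta, differed by 0.31 with groups that overlapped, the membrane protease gene Mmp14 by 0.99 and Ltbp3, which encodes a latent TGF-beta binding protein, by -0.24, none passing. The ligand list had 0 of 10 called and 8 dim. Inha and Inhbb, which encode inhibin subunits, were the 2 that were not dim, and they differed by 0.40 each with SEs of 0.43 and 0.57.

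Inhibitors had 1 of 18 called, beside 6.01% of all genes. Tgif1, a corepressor of SMAD-dependent transcription, rose 1.65-fold from 10.23, 10.03 and 9.76 to 10.65, 10.75 and 10.79 (log2 difference 0.72 ± 0.12, SE, limma adjusted p = 0.0179 with the batch term, 0.705 without). The groups did not overlap. Its relative Tgif2 lay the other way, at 8.15, 8.29 and 8.32 against 7.25, 7.43 and 5.92, and did not pass (batch-term adjusted p = 0.0516). Smurf1, a ubiquitin ligase for SMADs and receptors, differed by 0.43 and the BMP antagonist gene Chrd by -1.49, without passing. Other SMADs and their partners had 0 of 10 called, with Smad2 at -0.15, Crebbp at -0.16, Runx1 at -0.57 and Foxh1 at 1.21. The other bright Smad2 probe set went the opposite way, at 0.59.

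Of 10 measured TGF-beta target genes 2 rose, beside 3.09% of all genes, and 0 fell in the batch-term fit. Cdkn1a, the gene of the cell-cycle inhibitor p21, rose by 0.62 (limma adjusted p = 0.0245 with the batch term, 0.778 without). Junb, an AP-1 subunit gene, rose by 0.40 (limma adjusted p = 0.0371 with the batch term, 0.822 without). Both genes also respond to many other signals. Klf10 at -0.06 and Tsc22d1 at 0.04 did not pass, and 6 of the 10 were dim. BMP targets other than the genes above had 0 of 9 called, with Hamp at 0.54, Msx1 at 0.16, Gata2 at 0.14 and Hes1 at 0.13.

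Of the E proteins, the partners that ID proteins sequester, 1 of 3 genes was called, beside 6.01% of all genes. The groups did not overlap in any of the 3, beside 17.5% of all genes, with Tcf3 and Tcf4 lower and Tcf12 higher in low sodium. Tcf3, which encodes E12 and E47, fell from 10.44, 10.25 and 10.60 to 9.91, 10.00 and 9.93. The log2 difference was -0.48 ± 0.10 (SE, limma adjusted p = 0.0441 with the batch term, 0.783 without). Its 2 other bright probe sets were lower by more, 1427764_a_at by -1.23 (limma batch-term adjusted p = 0.00647) and 1452542_x_at by -1.25 (0.135). The latter was above the median of all probe sets in normal sodium only. Tcf4 differed by -0.39 (batch-term adjusted p = 0.0588) and Tcf12 by 0.47 (0.0858) without passing, and 1 of the 3 other bright Tcf12 probe sets had the opposite sign.

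**Figure D5:**
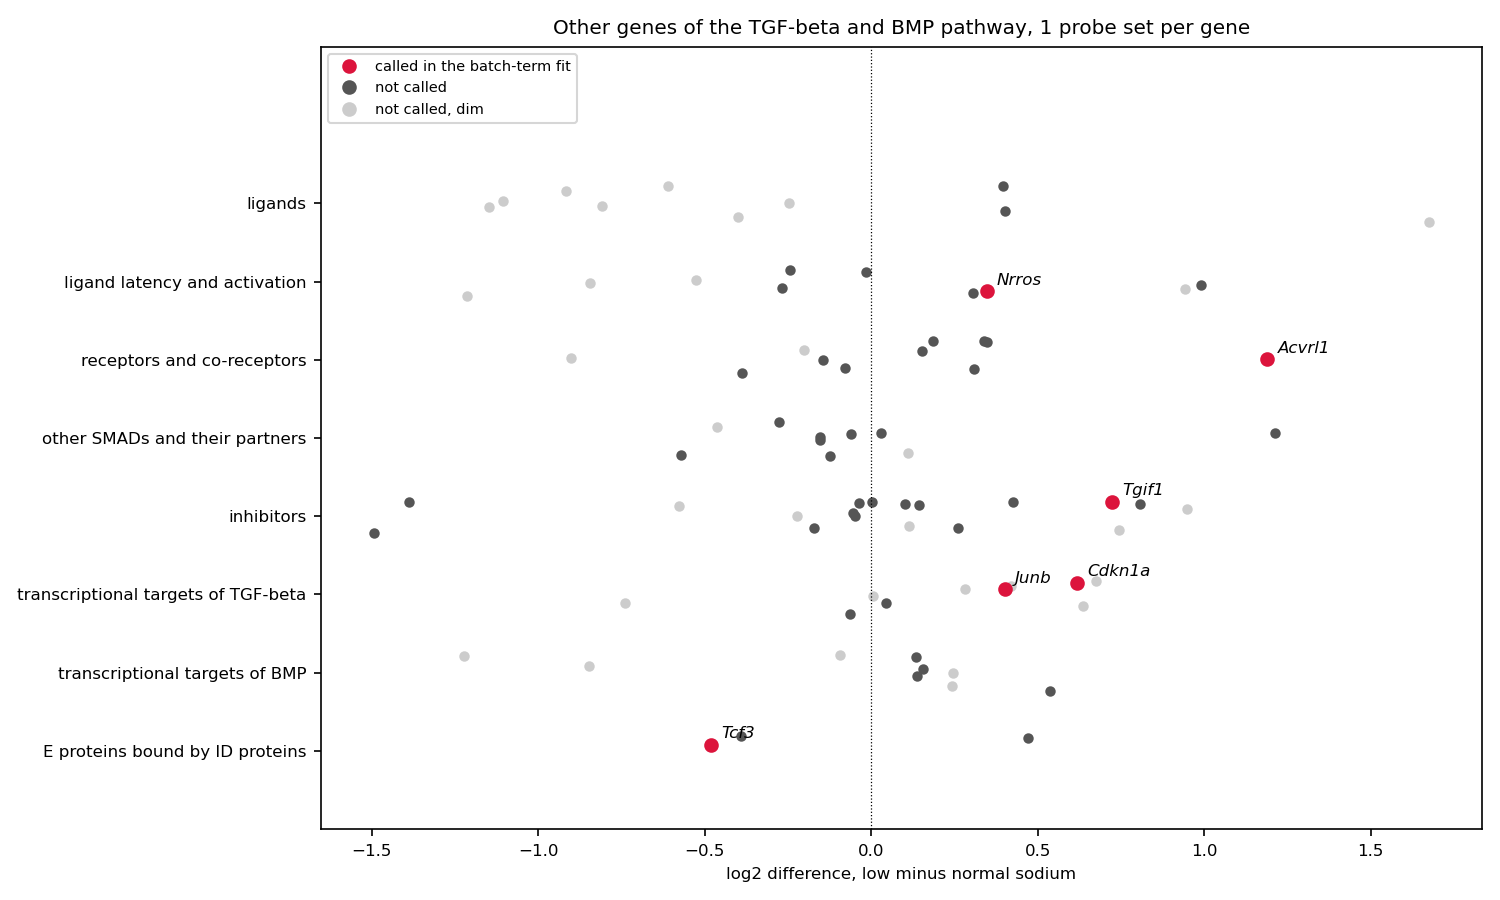
Log2 difference, low minus normal sodium (horizontal axis), for 81 further pathway genes in 8 lists (vertical axis, points spread within each list for visibility), with red for genes called in the batch-term fit, dark grey for those not called and light grey for dim ones. The 6 red points are Acvrl1, Tgif1, Cdkn1a, Junb and Nrros to the right of 0 and Tcf3 to the left.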

How the data were processed

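Biotin-labelled RNA from RAW264.7 cultures was hybridised to Affymetrix mouse arrays, per the labels, and 6 arrays were analysed. The deposited values were linear intensities, 1 per probe set and array, and the submitters' processing notes name Partek, with the way probes were summarised not stated there. On every array the values from the 2nd to the 98th percentile averaged 500.0. Values were analysed as log2(intensity + 1). The 64 control probe sets were left out. Genes came from the platform annotation, and 34945 probe sets carried 1 gene, 932 several and 9160 none. Symbols were updated through RefSeq.

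Limma 3.58.1 in R 4.3.3 compared low with normal sodium over 45037 probe sets (two-sided, Benjamini-Hochberg over all of them, adjusted p under 0.05), without a covariate as the main fit and with a batch term and trended prior as the second. Both were tested on simulated arrays of all 45037 probe sets for this comparison. At a log2 change of 1 the fit without a covariate recovered 0% of 200 changed probe sets and the batch-term fit 27%, and at 2 they recovered 0% and 73.5%. The simulation was drawn from the batch-term fit and so favours it. Its changed probe sets were picked only among those with a mean at or above the median, so recovery of dimmer ones was not tested. With 3 arrays per group, the number of arrays limits the precision.

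The genes, lists, fits and alternatives were chosen with earlier results of these data known. All member probe sets were named whatever their p, and up to 4 genes of each list that were not dim, by the smallest p of the batch-term fit. Genes of closest pattern were to be named only for called members, of which there were 0. Of 87 listed pathway genes 81 were matched; the others were not analysed here.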

Additional observations from a re-analysis of the deposited data

How the results depend on the processing

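The differences of the 22 probe sets were recomputed without a covariate under up to 16 other settings each, 349 values in all. Of these, 325 kept their sign and 0 passed an adjusted p of 0.05. The other 24 were near 0 or came from arrays left out. With replicates 1 and 2 alone the sign turned for Id2 1435176_a_at (-0.019), Smad3 1450472_s_at (-0.035), Smad4 1422485_at (0.029), Smad6 (-0.31), and Tgfbr2 1425444_a_at (-0.023) and 1426397_at (-0.095). Quantile normalisation turned Smad3 1450472_s_at (-0.00016) and Smad4 1422485_at (0.016). Leaving out 1 array at a time moved Id1 between -0.15 and 1.61, Smad6 between -0.091 and 0.55, Tgfb1 1445360_at between -0.42 and 0.11, Tgfbr2 1426397_at between -0.096 and 0.18 and the dim Smad7 1443771_x_at between -0.78 and 0.0030. It moved Smad3 1450472_s_at between -0.25 and 0.28, Smad3 1454960_at between -0.32 and 0.13, Smad4 1422485_at between -0.073 and 0.056, Smad4 1422486_a_at between -0.16 and 0.45 and Smad4 1422487_at between -0.089 and 0.0048. No setting turned a Tgfbr1 probe set, Id3 or Smad7 1423389_at, but with 1 array left out Id3 ran from -1.01 to -0.075 and Smad7 1423389_at from 0.39 to 1.33. These fits had no covariate. Leaving out 1 array leaves replicate 3 unbalanced between the media, so its shift enters all of these ranges.

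The count of the 22 called by the batch-term fit went from 0 to 2 with replicates 1 and 2 alone. It was also 2 without either replicate 3 array, and 0 without any 1 array of replicates 1 or 2. Once 1 replicate 3 array is left out, the batch term takes up the other. Those fits thus compare the media on replicates 1 and 2. Over all probe sets, limma without a covariate went from 0 calls to 1 with 16 added, 2 among brighter probe sets, 33 with a trended prior and 1840 with the batch term and trended prior. The 1840 of the batch-term fit became 893 with median centring, 3714 with replicates 1 and 2 alone, 33 without the batch term and 0 with a constant prior. Leaving out normal-sodium replicate 1, 2 or 3 gave 541, 392 and 3644, and leaving out the same of low sodium gave 485, 380 and 3684. The 3644 and 3684 rest on replicates 1 and 2 in the same way. The count of pathway genes called, 6 of 81, became 2 with median centring and 13 with replicates 1 and 2 alone. It was 0 with a constant prior, 0 without the batch term, and 0 to 14 with 1 array left out. These counts run over all 81 genes and can take in genes other than the 6.

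The replicate number as a block called 0 probe sets with a constant prior, and 703 with a trended prior, 1 pathway gene among them (Acvrl1) and 0 of the 22. The other 5 pathway genes had limma adjusted p from 0.0607 to 0.132 there, and all of the 6 but Acvrl1 were lost with median centring. Deviations of same-numbered arrays from their group means correlated at 0.0761, 0.0646 and 0.196 for replicates 1, 2 and 3 across probe sets. Normal-sodium replicate 2 correlated better with low-sodium replicate 1 (0.0766), so the numbers were not taken to pair the cultures.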
